A study of Mus musculus with 9 samples.

Results

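Neurotransmitter receptor subunits were read on single-colour Illumina bead arrays of brain tissue, each array being 1 mouse of 8 months on the C57BL/6 background. By sample title there were 4 mice with a knockout (KO) of CAIX and 5 wild-type mice. The Car9 gene encodes CAIX (carbonic anhydrase IX), a membrane enzyme that turns carbon dioxide and water into bicarbonate and protons outside the cell. The series was made, by its title, around neurological defects of these knockouts. The labels used here name no brain region, sex, mouse line or targeted allele, and no probe was matched to Car9, so the deletion itself was not checked on these arrays.

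Members were the probes whose identifier carries the NCBI gene number of a gene whose symbol starts with the letters of a receptor family (Gabr, Gabbr, Gria, Grid, Grik, Grin, Grm with a digit, Glr, Chrn, Chrm, Htr, Adra, Adrb or Drd), with Grin1 and Drd1 left out. Of 8127 genes named on the array, 33 are counted here, with 40 of its 46116 probes. Of these genes, 27 encode receptor subunits and had 32 probes. The remaining 6 genes, with 8 probes, only share the letters, among them the glutaredoxins Glrx, Glrx2, Glrx3 and Glrx5 and the protease Htra3. They were counted apart.

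Ionotropic receptors are ion channels assembled from several subunits, and they open when transmitter binds. AMPA, NMDA, kainate and nicotinic channels pass cations and excite the cell, whereas GABA-A and glycine channels pass chloride and mostly inhibit the adult neuron. GABA-A channel currents also carry bicarbonate, an ion that carbonic anhydrases produce. Metabotropic glutamate, GABA-B, muscarinic, adrenergic, dopamine and most serotonin receptors signal through G proteins.

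Group labels were in conflict, so every comparison of knockout with wild type rests on a choice of label. For 6 of the 9 samples the title gives one genotype and the genotype characteristic the other, and 4 arrays stand under other samples in the deposited processed table than in the deposited signal table. Each of these 4 stands there under a sample of the other title. The titles and the signal table's headers were followed, and differences of the receptor probes by characteristic are given as well. The median signal was lowest on knockout 4, at 133.2, and ranged up to 209.8 on the other arrays, with 14895 to 17325 probes above background per array. Xist, which is transcribed from the inactive X chromosome, read 10.89 on knockout 1 and 10.46 on both wild type 1 and wild type 2, against 6.83 to 6.93 on the other 6 arrays. Those 6 are the arrays whose title and characteristic conflict. Of the neuronal markers with a probe in use, Rbfox3, Syt1, Eno2, Nefm and Tubb3 were above background on all 9 arrays and Map2 on 7, while 3 probes for markers of cerebellar cells were kept out by the filter on dim probes.

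The array covered the receptor families unevenly. The RefSeq gene table holds 96 receptor genes counted here, and 27 of them had a probe. Adrenergic receptors had 6 of 9 genes with 7 probes, nicotinic subunits 6 of 16 genes with 9 probes, and AMPA subunits 3 of 4 genes with 4 probes. Of 17 GABA-A subunit genes only 2, Gabra2 and Gabrg3, were covered, with 1 probe each. For metabotropic glutamate receptors 2 of 8 genes had a probe, for muscarinic receptors 2 of 5 and for serotonin receptors 2 of 14. GABA-B, NMDA, glycine and dopamine receptors had 1 gene each, Gabbr1, Grin2d, Glra1 and Drd4, of 2, 6, 5 and 4 genes counted here. None of the 5 kainate genes had a probe that the rule could name.

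Detection split the receptor probes into a small group that read on every array and a large group that read on none. A probe counted as above background where its detection p was under 0.05. Of the 32 receptor probes, 9 were above background on all 9 arrays, 20 on 0 arrays and 3 on 1 to 8 arrays. The 9 probes on all arrays covered Gria1, Gria2, Gria3, Grm5, Grm8, Chrna4, Chrnb2, Adra2b and Adrb1. A second Gria1 probe was above background on 3 knockout and 4 wild-type arrays. These 10 probes, for 9 genes, passed the filter of at least 4 arrays above background and entered the tests.

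**Figure D1:**
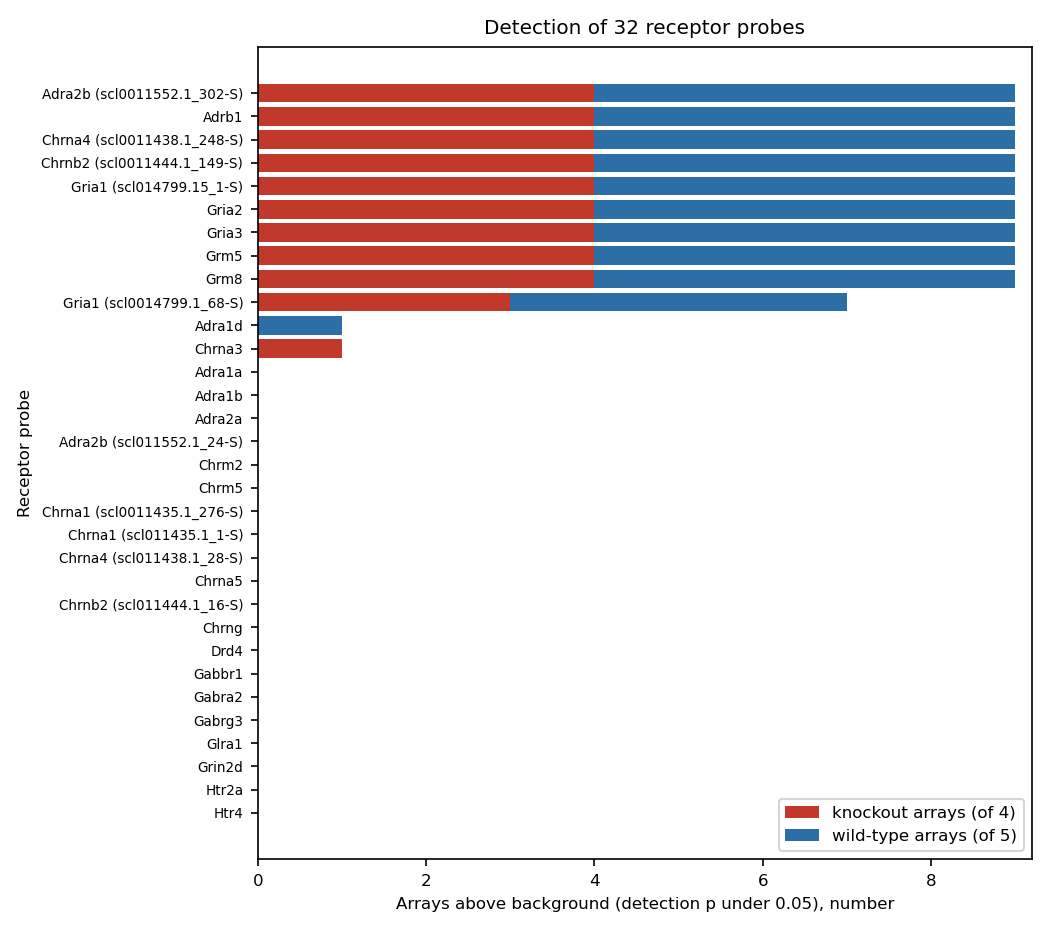
Number of arrays on which each of the 32 receptor probes was above background (detection p under 0.05), with knockout arrays (of 4) in red and wild-type arrays (of 5) in blue. The top 9 bars reach all 9 arrays, 1 reaches 7, 2 stop at 1, and 20 probes have no bar.

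The other 22 receptor probes were not kept, which left 18 receptor genes with no tested probe. In the GABA family these were Gabra2 and Gabrg3, an alpha and a gamma subunit of the GABA-A channel, and Gabbr1, the transmitter-binding subunit of the GABA-B receptor. Among glutamate receptors there was the NMDA subunit Grin2d. The glycine receptor subunit Glra1, the dopamine receptor Drd4, the muscarinic receptors Chrm2 and Chrm5 and the serotonin receptors Htr2a and Htr4 were also below the filter, as were the adrenergic receptors Adra1a, Adra1b, Adra1d and Adra2a. So were the nicotinic subunits Chrna3 and Chrna5, which form ganglionic and brain receptors, and Chrna1 and Chrng, which belong to the receptor of the neuromuscular junction. The 22 probes lay between 6.69 and 6.98 on the log2 normalised scale on every array. Of these probes, 2 were above background on exactly 1 array, a knockout array for Chrna3 and a wild-type array for Adra1d. A reading below background is a limit of the probe and not a measure of how much transcript the brain holds.

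Different probes of 1 gene often disagreed on detection. Chrna4, Chrnb2 and Adra2b each had 1 probe above background on all 9 arrays and a second probe above background on 0. Both Chrna1 probes were on 0 arrays. For Gria1 both probes were kept, at 10.34 ± 0.19 in knockout and 10.22 ± 0.16 in wild type for the first (scl014799.15_1-S), and 7.06 ± 0.13 in knockout and 6.98 ± 0.08 in wild type for the second (scl0014799.1_68-S) (SD, n = 4 and 5). They did not move together across the arrays, with Pearson's r of -0.43 (exact permutation test, two-sided, p = 0.261) and Spearman's rho of -0.35 (p = 0.351). Because probes differ in how well they bind, no probe's level was set against another's.

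The promoter windows of 3 nicotinic subunits are printed because Chrna4 and Chrnb2 make up the most common nicotinic receptor of the brain and were above background, whereas Chrna1 is a muscle subunit that was not. The windows are RefSeq sequence of GRCm38.p6, 250 bases before to 50 after the annotated start, on the minus strand. They lie at chr2:181039128-181039427, chr3:89764583-89764882 and chr2:73580289-73580588. Capitals mark CG, the step at which mammalian DNA is methylated, which reads the same on both strands.
Chrna4: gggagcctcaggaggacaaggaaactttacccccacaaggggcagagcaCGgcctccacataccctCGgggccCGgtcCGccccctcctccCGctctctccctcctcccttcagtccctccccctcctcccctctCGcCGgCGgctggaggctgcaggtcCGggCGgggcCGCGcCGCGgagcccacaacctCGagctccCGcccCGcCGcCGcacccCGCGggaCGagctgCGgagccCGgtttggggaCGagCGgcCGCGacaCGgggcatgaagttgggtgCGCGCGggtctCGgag
Chrnb2: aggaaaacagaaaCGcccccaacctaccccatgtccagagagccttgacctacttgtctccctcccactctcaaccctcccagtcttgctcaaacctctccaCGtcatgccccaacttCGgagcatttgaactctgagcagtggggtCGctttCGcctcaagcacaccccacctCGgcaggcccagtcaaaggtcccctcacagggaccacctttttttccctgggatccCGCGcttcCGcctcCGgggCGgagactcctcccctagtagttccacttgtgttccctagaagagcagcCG
Chrna1: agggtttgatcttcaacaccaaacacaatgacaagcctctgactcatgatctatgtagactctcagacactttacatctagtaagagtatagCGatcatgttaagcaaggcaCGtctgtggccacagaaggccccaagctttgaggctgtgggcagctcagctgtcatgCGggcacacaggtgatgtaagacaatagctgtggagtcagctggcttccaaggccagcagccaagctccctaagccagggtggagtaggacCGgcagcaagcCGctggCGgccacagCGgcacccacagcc

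Chrna4 held 33 CG in its window, Chrnb2 held 12 and Chrna1 held 7. Of 27025 genes with a window, 9.5% had at least as many CG as Chrna4, 42.0% at least as many as Chrnb2, and 49.0% at most as many as Chrna1. 94.6% held at least 1. A window was found for 20 of the receptor genes, and where a gene had several, the one with the most CG was taken. The 6 genes with a kept probe had a median of 28.5 CG (12 to 33), the 14 with none had 15.5 (2 to 28), and all genes had 8. Genes of both kinds reached 28 or more, and the count is a description of these windows only.

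The comparison of knockout with wild type asked whether receptor transcripts differ in a brain without CAIX. By title, 0 of the 10 kept receptor probes passed limma's test at an adjusted p of 0.05. Over all kept probes 4 of 16375, or 0.0244%, passed, so a count of 0 among 10 is near the background. At an unadjusted p under 0.05 there was 1 receptor probe, Grm8, with a higher knockout mean. The same criterion was met by 11.5% of all kept probes, 6.55% with a higher and 4.9% with a lower knockout mean. For 0 of the 10 did the knockout and wild-type arrays fall into ranges that do not overlap, against 3.68% of all kept probes (1.91% with knockouts higher and 1.78% with knockouts lower). Knockout means were higher for 5 probes and lower for 5. The median log2 difference, knockout minus wild type, was 0.04 over the receptor probes and 0 over all kept probes. The median size of the difference was 0.10 for receptor probes and 0.06 for all kept probes. Brain tissue is a mixture of cells, so fewer cells of a type and less RNA per cell cannot be told apart.

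**Figure D2:**
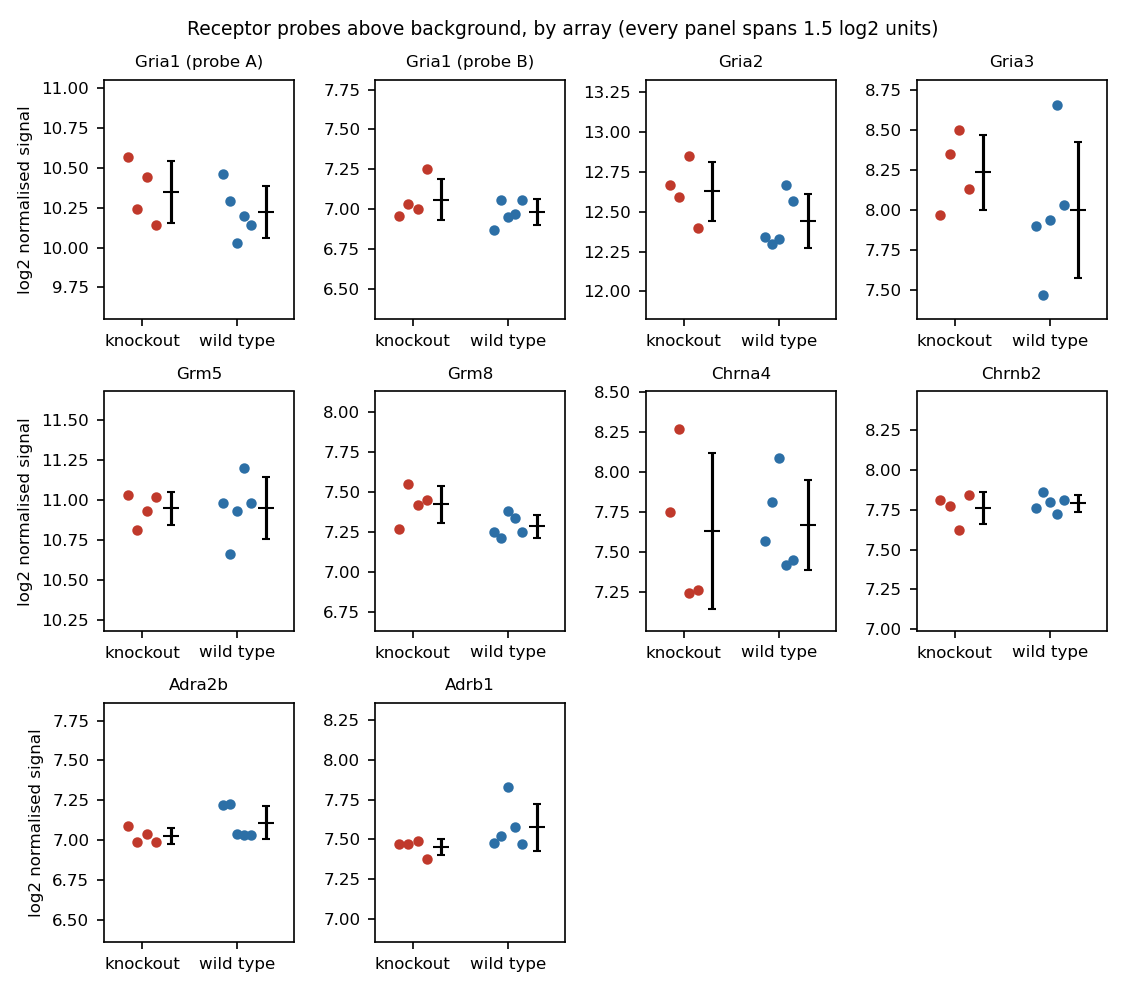
Log2 normalised signal of the 10 kept receptor probes on each array, with knockout points in red to the left of wild-type points in blue, and the mean ± SD beside each group (n = 4 and 5). Probe A of Gria1 is scl014799.15_1-S and probe B is scl0014799.1_68-S. The vertical axes differ in position but span the same length, and the groups overlap in all 10 panels.

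AMPA receptor subunits, which carry most fast excitatory transmission, had higher knockout means for all 4 probes by title, and none passed the test. By genotype characteristic both Gria1 probes were lower. Gria1, the subunit GluA1, which is moved into synapses during potentiation, read 10.57, 10.24, 10.44 and 10.14 in knockout 1 to 4, against 10.46, 10.29, 10.03, 10.20 and 10.14 in wild type 1 to 5. The highest array was a knockout and the lowest a wild type, with the rest interleaved. The difference was 0.12 (SE 0.107, 95% interval -0.12 to 0.37, limma, adjusted p = 0.733). It was 0.05 without knockout 1 and 0.19 without knockout 4. Its second probe read 6.96, 7.03, 7.0 and 7.25 in the knockouts, against 6.87, 7.06, 6.95, 6.97 and 7.06 in the wild types. Only knockout 4 stood above the wild-type arrays there (difference 0.08, SE 0.0678, adjusted p = 0.731), and without it the difference was 0.01.

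Gria2, whose edited form keeps AMPA channels closed to calcium, read 12.67, 12.59, 12.85 and 12.40 in knockout 1 to 4. In wild type 1 to 5 it read 12.34, 12.30, 12.33, 12.67 and 12.57. Wild type 1, 2 and 3 lay below every knockout array, whereas wild type 4 and 5 lay among them. The difference of 0.19 (SE 0.108, 95% interval -0.06 to 0.43) had an adjusted p of 0.563 in limma. It ranged from 0.11 without knockout 3 to 0.26 without knockout 4.

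Gria3, an X-linked AMPA subunit, varied more between arrays than 96.3% of kept probes (SD 0.357 over the 9 arrays). The knockouts read 7.97, 8.35, 8.50 and 8.13, and the wild types read 7.90, 7.47, 7.94, 8.66 and 8.03. Wild-type arrays held both the highest and the lowest value. The difference was 0.24 (SE 0.211, 95% interval -0.24 to 0.72, limma, adjusted p = 0.738), the largest in size of the 10, and it moved to 0.40 without wild type 4 and to 0.11 without wild type 2. Of the 3 arrays with high Xist, 7.97, 7.90 and 7.47 are among the 4 lowest Gria3 values, and with the Xist class as a covariate the difference was 0.17 (adjusted p = 0.79).

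The metabotropic glutamate receptors gave 1 probe with no difference in its mean and 1 with a higher knockout mean. Grm5, the receptor mGlu5, which acts through Gq on the postsynaptic side, read 11.03, 10.81, 10.93 and 11.02 in knockouts and 10.98, 10.66, 10.93, 11.20 and 10.98 in wild types. Its means were 10.95 ± 0.10 in knockout and 10.95 ± 0.19 in wild type (SD, n = 4 and 5), with a 95% interval of the difference of -0.22 to 0.22. Grm8, the receptor mGlu8, which lowers transmitter release from nerve terminals, read 7.27, 7.55, 7.42 and 7.45 in knockouts and 7.25, 7.21, 7.38, 7.34 and 7.25 in wild types. In Grm8 3 knockout arrays exceeded every wild-type array and knockout 1 lay among them. The difference of 0.14 (SE 0.061) had an unadjusted p of 0.0493 and an adjusted p of 0.435 in limma. Over its alternatives the adjusted p ran from 0.166, without knockout 1, to 0.999, with the deposited processed values read by header, where the difference was 0.01. With those values matched to arrays by content it was 0.16 (limma, adjusted p = 0.446).

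Both nicotinic subunits had nearly equal group means, but they differed in how they varied. Chrna4, the alpha4 subunit, read 7.75, 8.27, 7.24 and 7.26 in knockout 1 to 4 and 7.57, 7.81, 8.09, 7.42 and 7.45 in wild type 1 to 5. Knockout arrays held both the highest value and the 2 lowest, and its SD of 0.359 over the 9 arrays exceeded that of 96.4% of kept probes. The difference was -0.04 (SE 0.227, 95% interval -0.55 to 0.47, limma, adjusted p = 0.972), with -0.25 without knockout 2 and 0.09 without knockout 3. Chrnb2, the beta2 subunit that pairs with alpha4, read 7.81, 7.77, 7.62 and 7.84 in knockouts and 7.76, 7.86, 7.80, 7.72 and 7.81 in wild types. It had the smallest SD of the 10, 0.0738, and its difference of -0.03 (95% interval -0.15 to 0.09) had an adjusted p of 0.893.

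Both adrenergic receptors had lower knockout means. Adra2b, an alpha2 receptor coupled to Gi, read 7.09, 6.99, 7.04 and 6.99 in knockouts and 7.22, 7.23, 7.04, 7.03 and 7.03 in wild types. Wild type 1 and 2 stood above the other 7 arrays, and both had high Xist. The difference was -0.09 (SE 0.0582, 95% interval -0.22 to 0.05, limma, adjusted p = 0.642), -0.055 without wild type 2 and -0.137 with no background correction. Adrb1, the beta1 receptor, which raises cyclic AMP through Gs, read 7.47, 7.47, 7.49 and 7.38 in knockouts and 7.48, 7.52, 7.83, 7.58 and 7.47 in wild types. Wild type 3 was the highest and knockout 4 the lowest array. The difference of -0.13 (SE 0.0746, adjusted p = 0.579) was -0.06 without wild type 3.

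**Figure D3:**
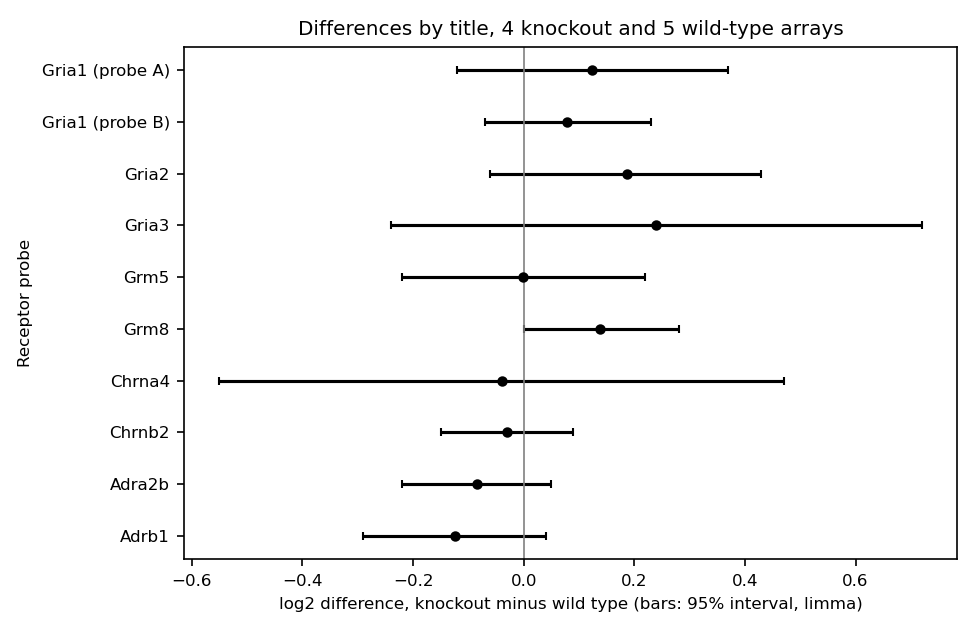
Log2 difference in mean signal, knockout minus wild type, of the 10 kept receptor probes, with the 95% interval from limma (4 knockout and 5 wild-type arrays). The interval of Grm8 starts at 0, all others span 0, and those of Chrna4 and Gria3 are the widest.

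With groups taken from the genotype characteristic, 0 of the 10 probes passed limma's test, as did 0% of all kept probes, and 0 had an unadjusted p under 0.05, against 4.09% of all kept probes. The means of the mice labelled CAIX ko were higher for 6 probes and lower for 4, with a median difference of 0.03. Grm5 had the largest difference, 0.15 (unadjusted p = 0.102), followed by Adrb1 at 0.12 (unadjusted p = 0.145), which was lower in knockout by title. No receptor probe had groups that do not overlap, against 1.53% of all kept probes. Of the 10 probes, 7 had the opposite sign to that by title. The characteristic gives 6 of the 9 arrays the other genotype, so opposite signs are partly built into this comparison. Grm8, which had the smallest p by title, was lower in the mice labelled CAIX ko, by a difference of -0.07 (unadjusted p = 0.384). The differences were -0.08 and -0.06 for the first and second Gria1 probes, 0.05 for Chrna4 and 0.02 for Chrnb2, which with Grm5 and Adrb1 make up the rest of the 7. Gria2, Gria3 and Adra2b kept their sign, at 0.06, 0.08 and -0.04.

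Across arrays, 1 of 80 relations between the 10 receptor probes and 8 marker lists passed the adjusted threshold in an exact permutation test. Chrna4 followed the mean of Tcf7l2, Rora and Ntng1, the 3 genes with a kept probe in a list of 6 that are strong in thalamus, a region where alpha4 is also known to be abundant. Pearson's r was 0.93 (n = 9, exact permutation test, two-sided, p = 0.000358, adjusted over the 80 relations p = 0.0286), and Spearman's rho was 0.88 (p = 0.00308, adjusted p = 0.246), which did not pass. The list read 0.37, 0.84, -0.39 and -0.80 relative to its mean over all arrays in knockout 1 to 4, and -0.01, 0.50, 0.67, -0.44 and -0.74 in wild type 1 to 5. Without knockout 2 and 4, the arrays farthest from the median of the list, r was 0.89 (n = 7, exact permutation p = 0.00933). It stayed between 0.91 and 0.95 when any 1 array was left out, was 0.93 after removing group means, and was 0.95 on the 6 arrays with low Xist (exact permutation p = 0.0278).

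Chrna4 also ran with every kept gene of the list taken singly. Tcf7l2, a transcription factor of thalamic neurons, read 8.45, 9.94, 7.39 and 7.16 in knockouts and 8.10, 9.07, 9.11, 7.35 and 7.31 in wild types. Its r with Chrna4 was 0.97 (n = 9, exact permutation p = 4.68e-05), that of Ntng1 was 0.81 (p = 0.00986) and that of Rora was 0.77 (p = 0.0154). These single-gene values were computed after the relation with the list was seen and are not independent of it. The arrays also differ by their place in the sample list. Wild type 1, knockout 1, wild type 2, wild type 3 and knockout 2, the 5 listed first, all lay above the 4 listed last on Chrna4 and on the thalamic list. Within the first 5 the arrays ranked alike on both measures, whereas within the last 4 they did not. Each of these sets is too small for a correlation of its own, and what the listing order stands for is not given in the sources used here. Whether dissection or the share of thalamus differed between the mice was not tested. The list itself differed little by group, with 2 genes higher and 1 lower in knockout and a median difference of 0.05.

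**Figure D4:**
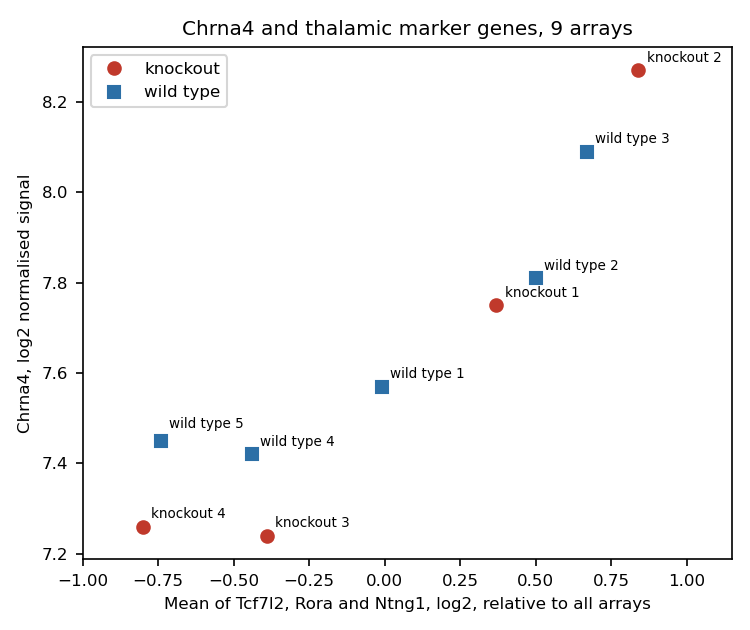
Chrna4 (log2 normalised signal, vertical) against the mean of Tcf7l2, Rora and Ntng1 relative to all arrays (log2, horizontal), 1 point per array, with knockouts as red circles and wild types as blue squares. Both groups spread along the same line, from knockout 4 and wild type 5 at the lower left to knockout 2 and wild type 3 at the upper right (r = 0.93, n = 9).

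Other relations with markers did not pass the adjustment. In all, 5 of the 80 had an unadjusted p under 0.05 by Pearson's r. Some reached it by Spearman's rho only, with adjusted p of 0.421 to 0.442. These were Chrnb2 with the neuronal list (rho = -0.745, exact permutation p = 0.0263), and Gria3, Gria2 and Chrna4 with the oligodendrocyte list. Their rho was -0.75 (p = 0.0255), -0.695 (p = 0.0442) and 0.70 (p = 0.0433). Chrna4 ran against the striatal list at r = -0.81 (n = 9, exact permutation p = 0.00888, adjusted p = 0.355) and rho = -0.78 (p = 0.0172, adjusted p = 0.421). That list had 2 of its 10 genes with a kept probe, Ido1, above background on 7 arrays, and Gpr6, on 5. Chrna4 ran with the hippocampal list at r = 0.74 (exact permutation p = 0.0249, adjusted p = 0.522) and rho = 0.78 (p = 0.0172, adjusted p = 0.421). Adrb1 ran against the endothelial list at r = -0.64 (exact permutation p = 0.0261, adjusted p = 0.522) and rho = -0.71 (p = 0.0386), and r was -0.37 without wild type 3 and 4. That list had 2 of its 7 genes with a kept probe, Egfl7 and Pecam1. Knockout 4 was the highest array for Egfl7, at 7.79, but among the lowest for Pecam1, at 7.26. The second Gria1 probe ran against the oligodendrocyte list at r = -0.66 (exact permutation p = 0.0485, adjusted p = 0.532) and rho = -0.48 (p = 0.197). Without wild type 1 and 3, r was -0.42. The oligodendrocyte list had 5 of its 10 genes with a kept probe, Cnp, Fa2h, Mobp, Mog and Opalin. All 5 had lower knockout means, against 50.2% of all kept probes, with 0 past limma's adjusted threshold. Cnp alone had an unadjusted p under 0.05, at 0.00395 in limma, against 4.9% of all kept probes with a lower knockout mean. The list's mean lay between -0.44 and -0.09 on knockout arrays and between -0.18 and 0.44 on wild-type arrays, and its part in the receptor differences was not tested.

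Pairs of receptor subunits were compared across the arrays. Of the 45 pairs of kept receptor probes, 0 passed the adjusted threshold in the exact permutation test of Pearson's r (smallest adjusted p 0.246). By the same test 5 had an unadjusted p under 0.05. Gria2 and Gria3, which join in AMPA channels, had an r of 0.75 (n = 9, exact permutation p = 0.0182, adjusted p = 0.246) and a rho of 0.81 (p = 0.0112), and r was 0.58 without wild type 2 and knockout 3. Adra2b and Grm8 had an r of -0.75 (exact permutation p = 0.0181) and a rho of -0.76 (p = 0.0218), and r was -0.74 without wild type 1 and 2. The other 3 were negative as well. Gria2 and Chrnb2 had an r of -0.74 (exact permutation p = 0.0166) and a rho of -0.60 (p = 0.0915), and r was -0.30 without wild type 2 and knockout 3. Gria3 and Chrnb2 had an r of -0.74 (exact permutation p = 0.0219) and a rho of -0.58 (p = 0.11). Gria3 and Adra2b had an r of -0.70 (exact permutation p = 0.0349) and a rho of -0.73 (p = 0.0322). The r of Gria3 and Adra2b was -0.29 without wild type 1 and 2, and 0.04 on the 6 arrays with low Xist. On those arrays r was 0.79 for Gria2 and Gria3, -0.67 for Adra2b and Grm8, -0.89 for Gria2 and Chrnb2 and -0.74 for Gria3 and Chrnb2. Chrna4 and Chrnb2, although partners in 1 receptor, had an r of 0.34 (exact permutation p = 0.384). The median r was -0.01 over the 9 pairs within a family, 4 of them positive, and -0.21 over the 36 pairs between families.

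Genes that work with the receptors were read from 4 lists, and none of their kept genes passed limma's adjusted threshold. Among proteins that anchor or assist glutamate receptors, 12 of 35 genes had a kept probe, 3 with higher and 9 with lower knockout means, a median difference of -0.11 against 0 over all kept probes, of which 50.2% had lower knockout means. Of these, 1 higher and 2 lower genes had an unadjusted p under 0.05, against 6.55% and 4.9% of all kept probes. Grip1, a PDZ protein that binds AMPA subunits, read 8.18, 8.23, 8.38 and 8.24 in knockouts and 7.89, 8.05, 7.80, 8.07 and 7.92 in wild types. Every knockout array lay above every wild-type array, as for 1.91% of kept probes, and the difference was 0.31 (SE 0.0666, limma, adjusted p = 0.179). Dlg4, the scaffold PSD-95 of excitatory synapses, read 10.17, 9.77, 10.08 and 9.14 in knockouts and 10.36, 10.54, 10.17, 10.32 and 10.30 in wild types. Knockout 4 was the lowest, and the difference was -0.55 (adjusted p = 0.319). Dlgap3, a partner of PSD-95, averaged 8.71 ± 0.29 in knockouts and 9.23 ± 0.23 in wild types (SD, n = 4 and 5), a difference of -0.52 (adjusted p = 0.262 in limma).

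Proteins that anchor or move inhibitory receptors were balanced, with 5 higher and 4 lower knockout means among 9 kept of 17 genes and a median of 0.00. None had an unadjusted p under 0.05 in limma, against 11.5% of all kept probes. Nlgn2, the neuroligin of inhibitory synapses, differed by -0.25 (adjusted p = 0.466). Trak1 and Trak2, adaptors of motor-driven transport, differed by -0.26 (adjusted p = 0.6) and 0.16 (adjusted p = 0.539).

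For transmitter synthesis, release and uptake, 7 of 31 genes had a kept probe, 3 with higher and 4 with lower knockout means. The median was -0.02, and 0 had an unadjusted p under 0.05 in limma, against 11.5% of all kept probes. Ddc, which makes dopamine and serotonin from their precursors, differed by 0.05 (adjusted p = 0.607). Slc17a7, the vesicular glutamate transporter of cortical neurons, differed by -0.12 (adjusted p = 0.802), and Slc1a1, a glutamate transporter of neurons, by 0.08 (adjusted p = 0.809).

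In signalling below monoamine and muscarinic receptors, 16 of 44 genes had a kept probe, 4 with higher and 12 with lower knockout means, against 50.2% lower over all kept probes, with a median of -0.03. There was 1 lower at an unadjusted p under 0.05, against 4.9% of all kept probes. That gene, Rgs4, which shortens Gi and Gq signals, read 11.98, 11.96, 12.49 and 12.54 in knockouts and 12.89, 12.66, 12.64, 12.58 and 12.51 in wild types. Knockout 1 and 2 were the lowest, and the difference was -0.41 (limma, unadjusted p = 0.0164, adjusted p = 0.31). Pde1b, a phosphodiesterase rich in striatum, differed by -0.68 (adjusted p = 0.468), at 11.76 ± 0.74 in knockouts and 12.44 ± 0.34 in wild types (SD, n = 4 and 5), and knockout 1 and 2, at 11.30 and 10.97, lay below the other 7 arrays. The striatal marker list, of which Ido1 and Gpr6 had a kept probe, was lowest on the same arrays, at -0.58 and -0.61, and its part in these differences was not tested. On knockout 1 and 2 both genes read near background, Ido1 at 6.96 and 6.87 and Gpr6 at 6.78 and 6.80.

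The 6 kept probes of genes that only share the letters had 2 higher and 4 lower knockout means and a median difference of -0.04. There were 0 calls in limma, adjusted or at an unadjusted p under 0.05, against 0.0244% and 11.5% of all kept probes.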

How the data were processed

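Bead-array signals of 9 mouse brains were used. The authors deposited signal values on a linear intensity scale with, per the file headers, no normalization, beside each a fraction (a detection p-value, per the file headers), and a table of processed log2 values. The fraction rose with the signal (lowest rank correlation 0.992), so 1 minus it was used as the detection p. Scanner software and processing tools are not stated in the labels or headers.

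Of 46120 probes, 4 bacterial controls were left out. Signals were background-corrected, quantile-normalized and put on the log2 scale by neqc (limma 3.58.1, R 4.3.3, offset 16). The filter required a detection p under 0.05 on 4 or more arrays and left 16375 probes. Group differences were tested per probe by lmFit and eBayes (two-sided), and p-values were adjusted by Benjamini and Hochberg's method over these probes. Relations across arrays were tested by exact permutation over 362880 orders, adjusted over each family of relations. Each array was treated as 1 animal, and the number of arrays limits the precision. The test was checked on simulated data.

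Gene names are not in the files. Of 10024 numbers in identifiers 81.1% were gene numbers of the RefSeq table (GRCm38.p6), against 43.8% to 45.9% after shifting them by 1 or 2, so names are an inference. Values are printed per array for kept receptor probes up to 16, and up to 3 partner genes of smallest p per list. Some members of these families and lists are not reported here, and the counts leave them out. Members and lists were chosen with earlier results of these data known. Alternatives were other filters, background corrections, normalizations and weights, the replicate number and the Xist class as terms, the processed values, the genotype characteristic and leaving out each array.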

Additional observations from a re-analysis of the deposited data

How the results depend on the processing

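Under every alternative run, 0 receptor probes passed the adjusted threshold, by title and by genotype characteristic. The count of 1 receptor probe at an unadjusted p under 0.05 by title became 0 with detection required on all 9 arrays, which tests 9 of the 10 probes, with no background correction, a trend and robust prior, the replicate block, and the processed values read by header or matched by content. It ranged from 0 to 2 with 1 array left out. The 2 came without wild type 4, where 2128 of all 16375 kept probes met the criterion. By characteristic the count of 0 became 1 of 32 receptor probes with no filter, where 1961 of all 46116 probes met the criterion. By title, the alternatives of single probes kept their sign in 192 cases and changed it in 17. Taking groups from the characteristic changed the sign for 7 of the 10 probes. That grouping gives 6 of the 9 arrays the other genotype, so its sign changes are not comparable with those of the processing. By header the processed values gave 0.011 for Grm8, 0.013 for the first Gria1 probe and -0.034 for Adrb1. Matched by content they gave 0.159, 0.103 and -0.12, near the main values. Chrna4 turned to 0.084 with array weights and 0.126 with processed values by header, and ranged from -0.252 to 0.091 with 1 array left out. Chrnb2 turned to 0.006 by header, with -0.057 to 0.018 when 1 array was left out. The second Gria1 probe turned to -0.02 by header. Grm5 turned to 0.019 with cyclic loess, 0.005 with median scaling, 0.006 with the replicate block and 0.084 by header, with -0.073 to 0.061 when 1 array was left out. Matched by content, the processed values kept the sign of the main comparison, at -0.076 for Chrna4, -0.026 for Chrnb2, 0.137 for the second Gria1 probe and -0.002 for Grm5. The readings by header and by content hold the same values and differ only in which samples 4 of the columns are given to. The cause of the other changes was not tested. Same-numbered arrays did not deviate together (r of 0.10, 0.09, -0.31 and 0.01), so numbers were not taken to pair mice. With 4 and 5 arrays, and the second Gria1 probe near background, small differences could not be resolved.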
